A study of Mus musculus with 16 samples.

Results

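Ribosome biogenesis factors are the proteins that transcribe, fold, cut, modify and export ribosomal RNA without remaining in the finished ribosome. A list of 60 such mouse genes was followed here, out of 20622 genes in the total RNA tables. The symbols were taken from a fixed list, matched by gene ID and divided into 7 steps of assembly. No measured value entered the rule, but the list and steps were chosen with earlier results of these data known. All 60 were found and all 60 passed the filter on low counts in both kinds of library. Most of them had lower ribosome footprints in the eIF4A2-depleted line: 55 of 60 log2 fold changes were below 0, against 51.1% of all genes. The median was -0.28. In the edgeR test 5 were called lower and 0 higher, against 3.72% and 6.6% of all genes. Without replicate 1, 2 or 3 the number called was 1, 0 and 0. In those fits 75 of 10237, 29 of 10280 and 3 of 10338 genes were lower. Total RNA was displaced the same way, with a median of -0.18 and 53 of 60 below 0, against 48.4% of all genes.

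The study used KM cells, a line grown from lung tumours of 1 male mouse at clinical endpoint. The mouse carried MYC in both copies of the Rosa26 locus, LSL-MYC/LSL-MYC, which Cre switches on. KM 4A2cr is a pool of clones made by lentiCRISPR cutting within the Eif4a2 coding region, and eIF4A2 protein was negative on western blot. KM NTC received a non-targeting guide in the same vector, so both lines carry Cas9 and a selection marker. Transduced cells were selected in puromycin and the lysis buffer held cycloheximide. No other drug is described for the footprinting cultures. Each line gave 4 replicates, plated and harvested on different days, and each lysate was divided into ribosome-protected fragments (RPFs) and total cytoplasmic RNA, giving 16 libraries. Replicates are cultures of the same cells, so the tests measure variation between days and not between animals or independent clones.

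Ribosome assembly starts in the nucleolus, where RNA polymerase I transcribes the precursor of the ribosomal RNAs. A very large complex, the small-subunit processome, forms around the front of this precursor, while the snoRNPs, particles of a small nucleolar RNA and its proteins, methylate it or convert uridines to pseudouridine. Cuts within the precursor then separate the pre-40S and pre-60S particles, which mature along different routes into the small and the large subunit. MYC is known as an activator of many of these genes, and eIF4A2 is a DEAD-box RNA helicase that acts in translation initiation and in repression of mRNAs.

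RPF libraries held 4512403 to 9621848 counts in coding sequences and total RNA libraries 5350919 to 9312622 estimated counts. The targeted gene was not absent at the RNA level: footprints on Eif4a2 were lower in 4 of 4 pairs (log2 fold change -0.49, SE 0.15, adjusted p = 0.0941; adjusted p-values are edgeR quasi-likelihood values after the Benjamini-Hochberg procedure), and its total RNA differed by -0.18 (adjusted p = 0.504). Epithelial markers summed to 4280 to 4910 TPM, the length-corrected unit of the total RNA tables, in KM NTC and to 4140 to 5940 in KM 4A2cr. Of 7 markers of alveolar type II cells, a cell of origin of such tumours, Sftpc and Sftpb were at 0 in every library and 5 averaged under 1 TPM. The summed list stood at 29.1 to 35.5 TPM in KM NTC and 37.5 to 48.9 in KM 4A2cr, nearly all from the lipid transporter Abca3 (27.6 to 34.6 and 36.5 to 47.6). Fibroblast and endothelial markers summed to at most 3.03 TPM. The leukocyte list reached 221 TPM in KM NTC and 155 TPM in KM 4A2cr, both in replicate 4, nearly all from Cd68, while Lyz2 and Cd3e were at 0. The part of these differences in the results was not tested.

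Replicate 4 stood apart for the biogenesis factors themselves. The median deviation of the 60 members from their own mean over the 8 RPF libraries was 0.52, 0.31, 0.11 and -0.40 on the log2 scale in KM NTC replicates 1 to 4. In KM 4A2cr it was 0.24, 0.05, -0.03 and -0.70. Within every replicate the depleted line was the lower of the pair, and the range between replicates of a line was wider than the difference between the lines. Total RNA gave the same arrangement, between -0.21 and 0.40 in KM NTC and between -0.39 and 0.13 in KM 4A2cr, again with replicate 4 lowest. Counting the members' own reads, they made up 0.377% to 0.938% of all RPF counts, and the lowest share was in KM 4A2cr replicate 4.

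**Figure D1:**
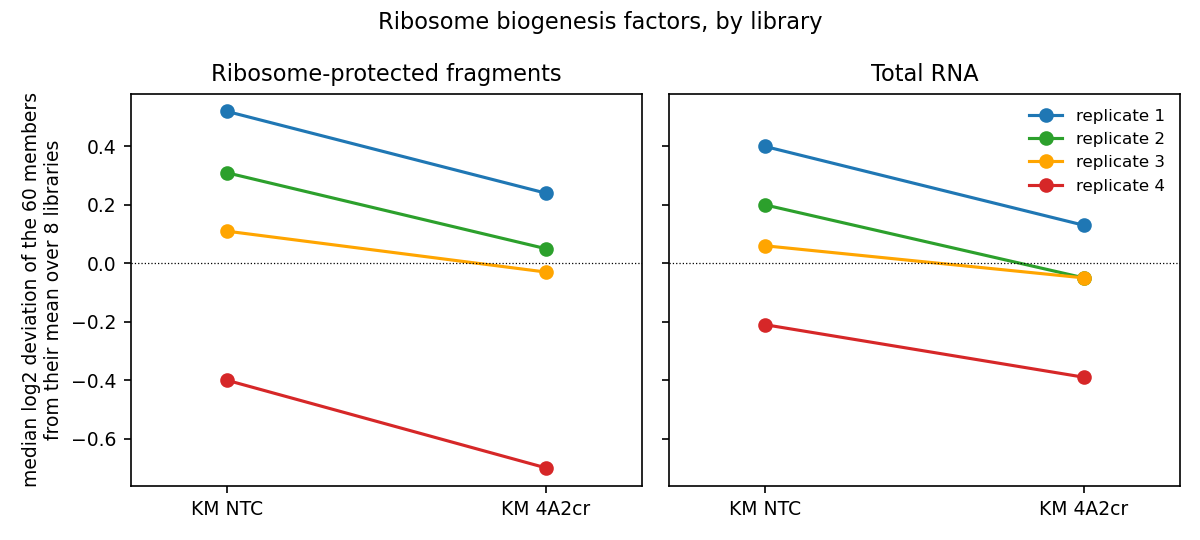
Median log2 deviation of the 60 factors from their mean over 8 libraries (y axis), by line (x axis), for RPFs and total RNA; each line joins the libraries of 1 replicate. The depleted line is lower in all 4 replicates of both panels, and replicate 4 is lowest, at -0.40 and -0.70 in RPFs.

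In RPFs 5 of the 60 factors were lower and 0 higher at an adjusted p of 0.1 in edgeR, with the replicate as a block, against 3.72% of all 10291 genes lower and 6.6% higher. At an unadjusted p under 0.05 there were 19. The 5 were Polr1b, Polr1e, Tbl3, Pwp2 and Gar1, which belong to the polymerase, the processome and a snoRNP. By direction alone 55 of 60 were below 0, against 51.1% of all genes, and 31 were lower in 4 of 4 pairs, against 16.0%. The median of the members was -0.28 and that of all genes -0.01, and the 4 pairs gave member medians of -0.30, -0.23, -0.13 and -0.37 (SD 0.10). The groups of RPF libraries overlapped for all 60 members (2.13% of all genes did not overlap), so these results rest on the pairing: with no replicate block 0 members were called, and the median was -0.26. That fit called 0 of all 10291 genes in either direction. The count also depended on which replicate was in the fit. It was 1, 0 and 0 without replicate 1, 2 or 3, and in those fits 75, 29 and 3 of all genes were lower. Without replicate 4 the count was 26 lower with 2 higher, where 14.3% of all genes were lower and 19.1% higher.

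Total RNA of the same genes was displaced in the same direction. None of the 60 was called in either direction (background 1.78% lower and 4.35% higher), with 14 at an unadjusted p under 0.05. DESeq2 also called 0, with 7 under that limit. The median was -0.18 against 0.01 over all genes, 53 members were below 0 against 48.4% of all genes, and 29 were lower in 4 of 4 pairs against 13.0%. The pair medians were -0.26, -0.22, -0.13 and -0.16. Without replicate 4 edgeR called 17 members lower, where 12.0% of all genes were lower. The smaller median of total RNA also rested on replicate 4, since without it the members' medians were -0.22 in both kinds of library.

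Scaling shifted all genes together. With the library size as the sole scaling the median of all genes moved to -0.14 in RPFs and -0.15 in total RNA, and the members' medians to -0.41 and -0.34. Relative to all genes the members were then at -0.26 and -0.19, against -0.27 and -0.19 in the fit reported here. Under that scaling 24 members were called lower in RPFs, where 11.0% of all genes were, and 19 in total RNA, where 7.98% were.

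Footprint change per mRNA, tested as the interaction of line and kind of library and called translational efficiency (TE) below, separated few members. Of the 60, 1 was higher and 1 lower, against 1.87% and 1.0% of 9989 genes: Ubtf at 0.50 and Polr1b at -0.48. The median over all genes was -0.02 and over the members -0.08, or -0.03 without replicate 4. By direction 42 of 60 were below 0 against 52.6% of all genes, 11 were lower in 4 of 4 pairs against 11.3%, and 9 were at an unadjusted p under 0.05. Across the 60 members RPF and total RNA fold changes had a Pearson r of 0.54 and a Spearman rho of 0.46, against 0.77 over all 9989 genes. These points share the lysates, so the coefficients are descriptions. RPF and total RNA changes were both below 0 for 52 members and both above 0 for 4, and the RPF value was the lower of both for 43 of 60. Without replicate 4 the TE test called 3 members higher and 3 lower, where 508 and 292 of 10072 genes were called.

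**Figure D2:**
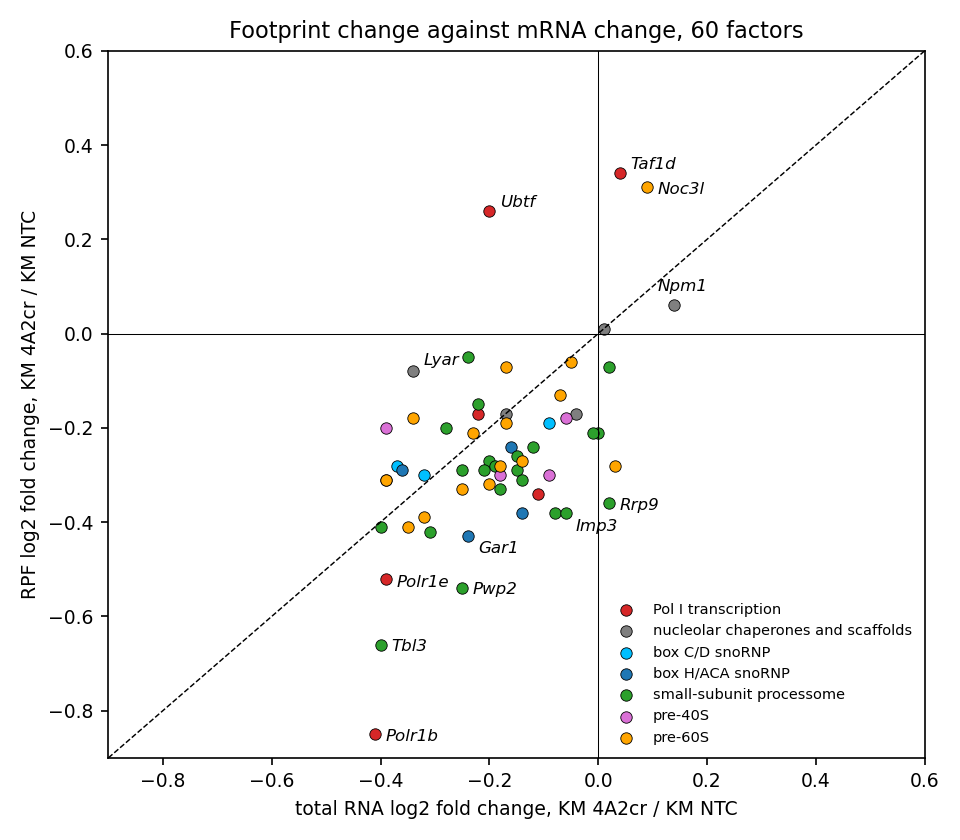
RPF log2 fold change (y axis) against total RNA log2 fold change (x axis) of 60 factors, KM 4A2cr over KM NTC, coloured by assembly step; the dashed line marks equal changes. Of the points, 52 lie in the lower left quadrant and 43 below the dashed line, with Polr1b lowest at -0.85 and Ubtf and Taf1d above 0 in RPFs.

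The machinery of RNA polymerase I held both the lowest and the highest footprint changes of the list. Polr1b, the second largest subunit of the enzyme, had 161, 104, 90.3 and 26.4 CPM (RPF counts normalised to the effective library size) in KM NTC replicates 1 to 4. It had 88.2, 56.1, 58.1 and 12.4 CPM in KM 4A2cr, lower in every pair, although the spread across replicates made the groups overlap. The means were 95.3 ± 55.1 and 53.7 ± 31.2 CPM (SD, n = 4), and the log2 fold change was -0.85 (SE 0.13, adjusted p = 0.0118). Its total RNA was 51.8, 31.5, 26.9 and 16.1 CPM in KM NTC and 41.9, 24.6, 23.1 and 8.53 CPM in KM 4A2cr. That difference, -0.41 (SE 0.14), did not pass the test (adjusted p = 0.168), and without replicate 4 it was -0.31 and passed (adjusted p = 0.0585). The TE of Polr1b was lower in 4 of 4 pairs, at -0.48 (SE 0.12, adjusted p = 0.0564), so in this fit its footprints fell by more than its mRNA differed. That TE call was lost in DESeq2 (adjusted p = 0.132) and in edgeR with library size as the sole scaling (0.108). Without replicate 2 or 3 the adjusted p of the RPF change was 0.113 or 0.13 at folds of -0.84 and -0.90, and that of TE was 0.397, 0.279 and 0.24 without replicates 1, 2 and 3. Polr1b lies on chromosome 2, where the tested genes as a whole had a median of -0.21 in RPFs and -0.17 in total RNA, with 85 of 833 lower in RPFs. The other members there, Nop56 and Nop10, were at -0.30 and -0.29, and the 57 members elsewhere had a median of -0.27 and 4 of the calls. The part of the chromosome in the Polr1b value was not tested.

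Polr1e, a subunit of the polymerase's initiation and elongation subcomplex, had 31.9, 15.7, 16.7 and 8.18 RPF CPM in KM NTC and 22.2, 10.6, 11.4 and 6.19 in KM 4A2cr. All 4 pairs were lower and lay close together, from -0.56 to -0.39. The fold change was -0.52 (SE 0.14, adjusted p = 0.0682). In total RNA the libraries held 28.3, 15.4, 12.4 and 8.62 CPM against 20.1, 11.7, 9.28 and 7.61 CPM, lower in every pair at -0.39 (adjusted p = 0.183). Without replicate 4 the mRNA value was -0.45 and passed (adjusted p = 0.025), and on the 1 isoform of 3 on which RPFs were counted it was -0.16 (adjusted p = 0.773). The TE difference of -0.11 did not pass the test (adjusted p = 0.805). The RPF call was lost without replicate 1, 2 or 3 (adjusted p = 0.203, 0.36 and 0.317) and in DESeq2 (0.165). The largest subunit, Polr1a, was at -0.34 in RPFs (adjusted p = 0.215), and the initiation factor Rrn3 at -0.17 (adjusted p = 0.525).

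Ubtf, the HMG-box factor that coats active ribosomal DNA, went the other way. It had 65.3, 39.9, 31.6 and 26.2 RPF CPM in KM NTC and 68.0, 44.8, 56.3 and 25.6 CPM in KM 4A2cr, which is close to level in replicates 1 and 4 and higher in replicate 3. Total RNA stood at 114, 69.5, 55.8 and 32.8 CPM against 78.0, 58.8, 59.5 and 31.6 CPM, lower in 3 of 4 pairs. Neither difference passed its own test (0.26, adjusted p = 0.373 and -0.20, adjusted p = 0.5). Their difference did: TE was higher in 4 of 4 pairs, by 0.61, 0.41, 0.74 and 0.02, at 0.50 (SE 0.12, adjusted p = 0.0482). Ubtf had 9 isoforms in the total RNA tables and RPFs were counted on 1 of them. With total RNA restricted to that isoform TE was 0.49 and missed the threshold (adjusted p = 0.188). It was also missed without replicate 1, 2 or 3 (adjusted p = 0.356, 0.223 and 0.24). Taf1d, a component of the selectivity factor that brings the polymerase to its promoter, had the highest RPF fold change of the list at 0.34 (adjusted p = 0.231). Without replicate 4 that value was 0.46 and passed (adjusted p = 0.0225).

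**Figure D3:**
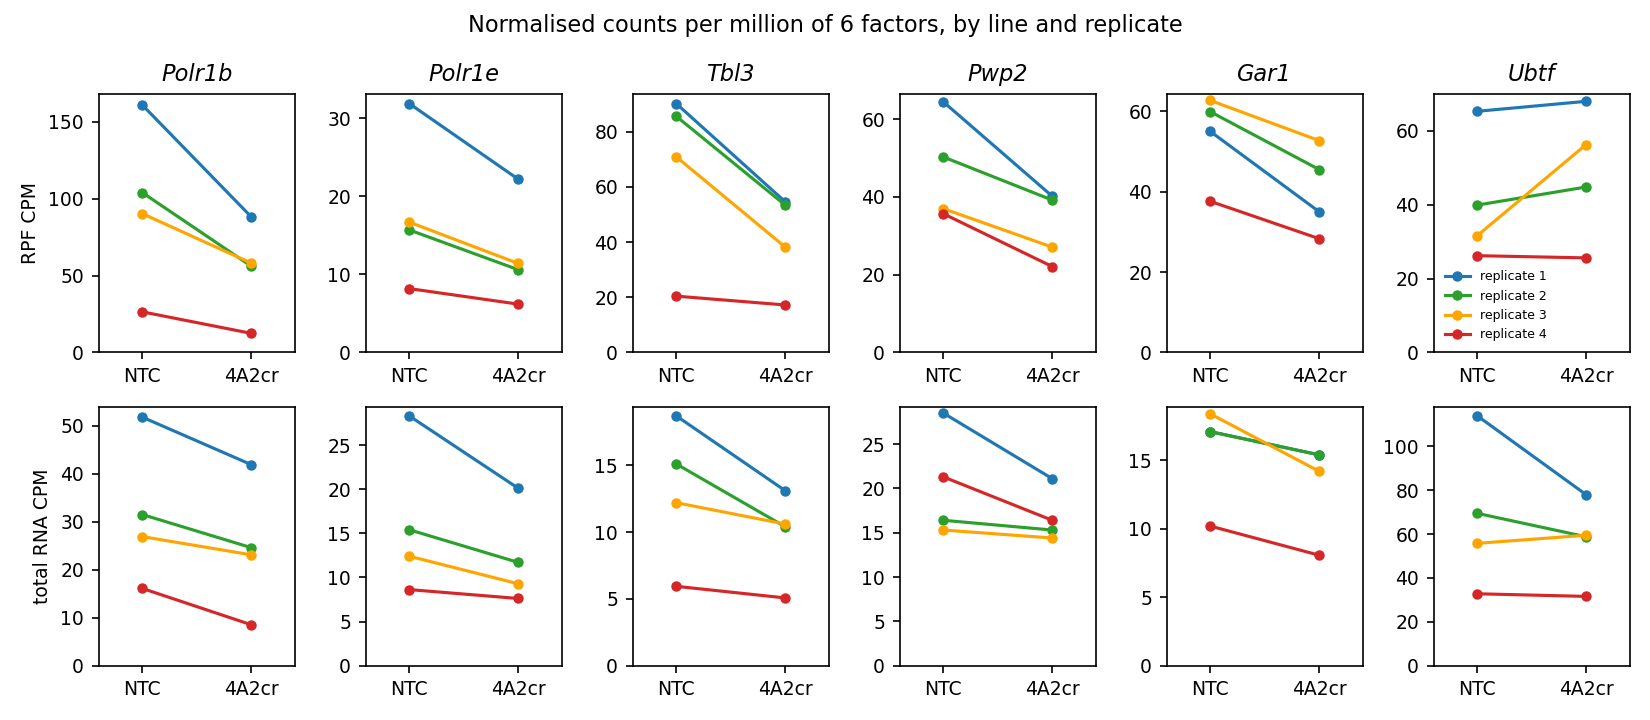
Normalised CPM (y axis, from 0) of the 5 factors lower in RPFs and of Ubtf, by line (x axis), RPFs above and total RNA below; each line joins the libraries of 1 replicate. RPF lines of Polr1b, Polr1e, Tbl3, Pwp2 and Gar1 slope down in 4 of 4 replicates, while those of Ubtf are level or rise and its total RNA is lower in 3.

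The small-subunit processome, with 22 members the largest step, was below 0 in RPFs for 22 of 22 (51.1% of all genes), with a median of -0.29 and 15 lower in 4 of 4 pairs (16.0% of all genes). Its pair medians were close, at -0.35, -0.31, -0.22 and -0.28. Total RNA had a median of -0.19 with 20 of 22 below 0, and TE a median of -0.11 with 19 below 0 and 9 lower in 4 of 4 pairs. The 2 that passed in RPFs, Tbl3 and Pwp2, are both WD-repeat scaffolds of UTP-B, the subcomplex that holds the early precursor. Without replicate 4, 14 of 22 were called lower in RPFs, against 14.3% of all genes.

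Tbl3 had 90.2, 85.6, 70.9 and 20.4 RPF CPM in KM NTC and 54.6, 53.4, 38.2 and 17.2 CPM in KM 4A2cr. It was lower in every pair, least so in replicate 4. The fold change was -0.66 (SE 0.14, adjusted p = 0.0344). Its total RNA, 18.7, 15.1, 12.2 and 5.94 CPM against 13.1, 10.4, 10.6 and 5.07 CPM, was also lower in 4 of 4 pairs, at -0.40 (adjusted p = 0.209), and passed without replicate 4 (-0.44, adjusted p = 0.0411). Tbl3 had the lowest mRNA level of all members, 4.66 TPM in KM NTC. Its RPF call was lost without replicate 1, 2 or 3 (adjusted p = 0.149, 0.234 and 0.275).

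Pwp2 had 64.5, 50.3, 37.0 and 35.7 RPF CPM in KM NTC and 40.2, 39.2, 27.1 and 22.1 CPM in KM 4A2cr, a fold change of -0.54 (SE 0.13, adjusted p = 0.0514). Its total RNA was 28.5, 16.4, 15.3 and 21.3 CPM against 21.1, 15.3, 14.4 and 16.4 CPM, at -0.25 (adjusted p = 0.382). Both kinds were lower in each pair, and TE lay between -0.36 and -0.25 in the 4 pairs without passing (-0.29, adjusted p = 0.327). Without replicate 1, 2 or 3 the adjusted p of the RPF change was 0.189, 0.223 and 0.266. The other UTP-B members, Wdr3, Utp6, Wdr36 and Utp18, were at -0.38, -0.29, -0.28 and -0.05, and the subcomplex median was -0.34 in RPFs and -0.22 in total RNA.

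UTP-A, which binds the precursor first, had an RPF median of -0.27 and a total RNA median of -0.20 over Wdr43, Wdr75, Heatr1, Utp4 and Utp15. Wdr43 led it, with 143, 166, 121 and 63.6 RPF CPM in KM NTC and 94.4, 121, 117 and 43.1 CPM in KM 4A2cr. The pair of replicate 3 was nearly level and the others were apart. The fold change was -0.41 (SE 0.14, adjusted p = 0.118), and total RNA, at 176, 180, 161 and 89.3 CPM against 122, 140, 141 and 62.2 CPM, gave -0.40 (SE 0.12, adjusted p = 0.119). Footprints and mRNA of Wdr43 therefore differed by nearly the same amount, with a TE of -0.02. Neither passed with all replicates, and both did without replicate 4 (adjusted p = 0.0336 and 0.00841).

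The U3 snoRNP protein Rrp9 and the MPP10 partners Imp3 and Imp4 had the widest gap between the kinds of library of any subgroup in the processome. Their RPF values were -0.36, -0.38 and -0.21, while total RNA was at 0.02, -0.06 and -0.00. The TE median was -0.31, and at an unadjusted p under 0.05 were Rrp9 (-0.39, adjusted p = 0.205) and Imp3 (-0.31, adjusted p = 0.306). Imp3 was uneven, with RPF pairs of -0.89, 0.02, -0.83 and 0.27, whereas Rrp9 was lower in 4 of 4 pairs, from -0.52 to -0.10. The remaining processome factors, among them the GTPase Bms1 (-0.29), the methyltransferase Emg1 (-0.07), Utp20 (-0.29), Noc4l (-0.42), Nop9 (-0.31), Utp3 (-0.26), Utp14a (-0.21) and Nop14 (-0.15), had an RPF median of -0.28.

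The snoRNP proteins were below 0 in RPFs for 7 of 7. Gar1, a core protein of the box H/ACA particles that make pseudouridine, had 55.0, 59.9, 62.7 and 37.6 RPF CPM in KM NTC and 35.0, 45.5, 52.7 and 28.3 CPM in KM 4A2cr. It was lower in 4 of 4 pairs, at -0.43 (SE 0.13, adjusted p = 0.0932), the weakest of the 5 calls. In total RNA the libraries held 17.1, 17.1, 18.4 and 10.2 CPM against 15.4, 15.4, 14.2 and 8.07 CPM, at -0.24 (adjusted p = 0.415). The RPF call was lost without replicate 1, 2 or 3 (adjusted p = 0.287, 0.381 and 0.301) and in DESeq2 (0.132). The pseudouridine synthase Dkc1 was at -0.38 in RPFs (adjusted p = 0.131) and -0.14 in total RNA, and Nhp2 at -0.24 and -0.16.

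Nop10, the smallest protein of the same particle, had 45.4, 25.3, 29.2 and 31.7 RPF CPM against 40.7, 15.9, 22.7 and 32.6 CPM, and the pair of replicate 4 was level. Total RNA stood at 109, 68.4, 88.4 and 72.2 CPM against 90.1, 50.9, 57.0 and 66.8 CPM, lower in 4 of 4 pairs. The differences were -0.29 and -0.36 (adjusted p = 0.279 and 0.168). Without replicate 4 both passed, at -0.38 in RPFs and -0.45 in total RNA (adjusted p = 0.0573 and 0.0031).

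Of the box C/D proteins, which carry out ribose methylation, Nop58 had 219, 244, 191 and 113 RPF CPM against 179, 208, 178 and 79.2 CPM. Its total RNA was 319, 313, 286 and 169 CPM against 222, 249, 225 and 140 CPM. Both were lower in every pair, at -0.28 (adjusted p = 0.215) and -0.37 (adjusted p = 0.147), so here the mRNA value was the lower. Its partner Nop56 was at -0.30 and -0.32, and the methyltransferase Fbl at -0.19 and -0.09. The TE median of the 3 was 0.02. Without replicate 4 the total RNA of Nop58 and Nop56 passed (adjusted p = 0.00236 and 0.0537).

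Nucleolar chaperones and scaffolds were the step nearest to all genes, with a median of -0.08 in RPFs and -0.04 in total RNA and 3 of 5 below 0 in each. Ncl, the abundant RNA-binding protein nucleolin, had 1048, 882, 561 and 505 RPF CPM against 847, 770, 646 and 388 CPM, lower in 3 pairs and higher in replicate 3. In total RNA the libraries held 1252, 1097, 930 and 1040 CPM against 995, 966, 756 and 1152 CPM, lower in 3 pairs and higher in replicate 4. Both differences were -0.17 (adjusted p = 0.496 and 0.643). Without replicate 4 the total RNA value was -0.28 and passed (adjusted p = 0.0288). Npm1, the histone chaperone nucleophosmin and the most abundant member at 2600 TPM, was at 0.06 in RPFs and 0.14 in total RNA, and Npm3 at 0.01 in both. Nolc1, which carries snoRNPs, was at -0.17 in RPFs.

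Lyar, a nucleolar zinc-finger protein, had 43.3, 29.0, 26.7 and 25.4 RPF CPM against 40.8, 26.7, 32.0 and 18.8 CPM, with the pairs on both sides of 0. Total RNA stood at 45.0, 40.3, 41.2 and 28.6 CPM against 36.0, 28.4, 30.3 and 27.2 CPM, lower in 4 of 4 pairs. The values were -0.08 (adjusted p = 0.779) and -0.34 (adjusted p = 0.189), with a TE of 0.30 that missed the threshold (adjusted p = 0.335). Without replicate 4 total RNA was at -0.43 and TE at 0.44, and both passed (adjusted p = 0.00716 and 0.0382). In that fit 508 of 10072 genes were higher in TE.

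All 5 pre-40S factors were below 0 in both kinds of library, with medians of -0.30 and -0.18. Tsr1, a GTPase-like protein that blocks the pre-40S surface until late, had 69.2, 85.1, 69.6 and 74.1 RPF CPM against 52.5, 84.0, 63.7 and 46.0 CPM. The pair of replicate 2 was level and that of replicate 4 widest. Its values were -0.30 in RPFs (adjusted p = 0.248) and -0.18 in total RNA (adjusted p = 0.486), where the libraries held 81.9, 84.0, 74.2 and 79.7 CPM against 69.7, 85.0, 67.0 and 61.8 CPM. Rrp12 and Pno1 were at -0.31 and -0.30 in RPFs, and Nob1, the endonuclease that makes the last cut of the small-subunit RNA, at -0.18. Without replicate 4 Pno1 passed in RPFs (adjusted p = 0.00633) and in TE (-0.33, adjusted p = 0.0715). In that fit 292 of 10072 genes were lower in TE.

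Ltv1, an export and assembly factor of the same particle, was the only member whose total RNA groups did not overlap (1.97% of all genes did not). That RNA stood at 27.8, 28.2, 27.9 and 23.8 CPM in KM NTC and 21.1, 21.3, 20.3 and 19.4 CPM in KM 4A2cr, so that the highest depleted library lay under the lowest control. The means were 26.9 ± 2.11 and 20.5 ± 0.87 CPM (SD, n = 4), at -0.39 (SE 0.12), which missed the threshold in edgeR (adjusted p = 0.124). Without replicate 4 it was -0.43 and passed (adjusted p = 0.0136). In RPFs the libraries overlapped, at 78.3, 85.3, 60.5 and 50.8 CPM against 57.2, 70.6, 65.7 and 44.4 CPM, and the difference was -0.20 (adjusted p = 0.408).

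Pre-60S factors were below 0 in RPFs for 14 of 15, with a median of -0.27 against -0.18 in total RNA and -0.04 in TE, and 0 were called. Rrp1b had 48.2, 24.8, 23.7 and 18.3 RPF CPM against 40.5, 19.9, 19.1 and 9.69 CPM. Its total RNA was 46.6, 25.5, 20.4 and 19.9 CPM against 43.5, 18.7, 17.0 and 12.2 CPM. Both were lower in every pair, most in replicate 4, at -0.41 (adjusted p = 0.144) and -0.35 (adjusted p = 0.215). Ebna1bp2, a factor of early large-subunit particles, had 124, 125, 111 and 57.5 RPF CPM against 105, 108, 123 and 41.7 CPM, higher in replicate 3 and lower in the others. Its total RNA was lower in 4 of 4 pairs, 95.4, 81.3, 80.5 and 38.9 CPM against 65.7, 68.3, 72.3 and 29.0 CPM. The differences were -0.18 (adjusted p = 0.464) and -0.34 (adjusted p = 0.186). Without replicate 4 its total RNA passed, at -0.32 (adjusted p = 0.03), and Rrp1b passed in RPFs, at -0.29 (adjusted p = 0.0986).

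The 3 members of the PeBoW complex, Bop1, Pes1 and Wdr12, which acts in large-subunit rRNA processing, lay together at -0.32, -0.28 and -0.27 in RPFs and -0.20, -0.18 and -0.14 in total RNA. The rRNA methyltransferase Nop2 was at -0.39 in RPFs, Mrto4 at -0.33, Nop16 at -0.31, Noc2l at -0.21 and Rrs1 at -0.19. The nucleolar GTPases Gnl3 and Gnl2 were at -0.13 and -0.07, and Rrp1 at -0.06. Nip7 had the widest gap of the step between kinds, -0.28 in RPFs against 0.03 in total RNA (TE -0.31, adjusted p = 0.227). It had 2 isoforms in total RNA, with RPFs counted on 1 of them. Its total RNA ran from 244 to 929 CPM in KM NTC, and the total RNA pairs were 0.41, -0.07, -0.24 and 0.02. Noc3l was the exception at 0.31 in RPFs, with RPF pairs of 0.26, 0.28, 0.63 and -0.01 (adjusted p = 0.266), and without replicate 4 it passed (adjusted p = 0.0797).

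**Figure D4:**
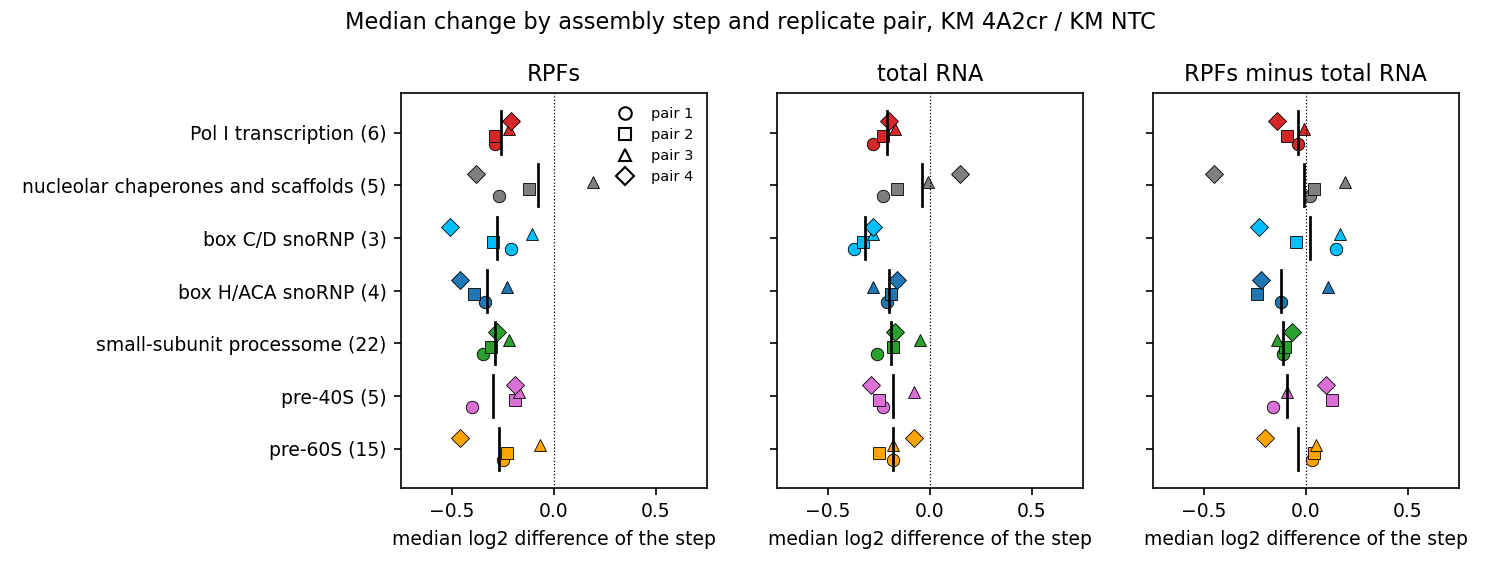
Median log2 difference of each assembly step (x axis), KM 4A2cr over KM NTC, in RPFs, total RNA and RPFs minus total RNA; symbols are the 4 replicate pairs, black bars the fitted medians, and brackets the number of factors. All 4 pairs are below 0 in RPFs for 6 of the 7 steps, the exception being the chaperones and scaffolds, at -0.08.

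A second list of 109 biogenesis factors outside the 60 gave 15 lower and 0 higher in RPFs (3.72% and 6.6% of all genes), with 98 below 0 (51.1%) and a median of -0.23. The number called was 1, 0 and 0 without replicate 1, 2 or 3. In those fits all genes gave 75, 29 and 3 lower and 157, 94 and 29 higher. Without replicate 4 the number called was 39 lower and 1 higher, where 14.3% and 19.1% of all genes were called. In total RNA 0 of these 109 passed in edgeR or DESeq2, with 19 and 7 at an unadjusted p under 0.05. There 85 were below 0 (48.4% of all genes), with a median of -0.15. Without replicate 4 edgeR called 29 of them lower and 1 higher in total RNA, where 12.0% and 17.8% of all genes were called. The 3 with the smallest RPF p were Exosc2, a subunit of the RNA exosome on chromosome 2 (-0.73, adjusted p = 0.02), the processome factor Nol6 (-0.57, adjusted p = 0.0348) and Lsg1, the cytoplasmic GTPase of late pre-60S particles (-0.56, adjusted p = 0.0366). In TE 82 of the 109 were below 0 (52.6% of all genes), with a median of -0.06. Of them 3 were called lower and 0 higher, against 1.0% and 1.87% of all genes. These were Exosc2 (-0.44, adjusted p = 0.0707), Nol6 (-0.47, adjusted p = 0.09) and the polymerase subunit Polr1c (-0.53, adjusted p = 0.0534). Polr1c was at -0.46 in RPFs (adjusted p = 0.083). The cytosolic ribosomal proteins, the parts that these factors assemble, had medians above 0 in both kinds of library. Their RPF median was 0.06 over 77 tested genes, with 54 above 0, and their total RNA median was 0.23 over 79, with 73 above 0. In edgeR 0 passed in either, with 5 and 3 at an unadjusted p under 0.05, and DESeq2 called 0 and 1. With library size as the sole scaling the medians were -0.07 and 0.08, so the RPF direction flipped while all genes stood at -0.14 and -0.15. Without replicate 4 they were -0.00 and 0.04. In that fit 5 of these genes were lower and 6 higher in RPFs (14.3% and 19.1% of all genes), and 2 were lower and 5 higher in total RNA (12.0% and 17.8%). The total RNA pair medians were -0.10, 0.13, 0.12 and 0.77. In TE 71 of 77 ribosomal proteins were below 0 (52.6% of all genes), with a median of -0.16. Of these 77, 6 were called lower and 0 higher, against 1.0% and 1.87% of all genes. Without replicate 4 their TE median was -0.03, with 11 lower and 2 higher, where 292 and 508 of 10072 genes were called. Whether the factors and the ribosomal proteins differ was not tested.

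Because KM cells carry MYC transgenes, the promoters of the factors were read for the canonical E-box CACGTG, the core sequence bound by MYC with its partner MAX. The window ran from 250 bases before to 50 bases after the RefSeq start in GRCm38.p6, and the motif reads the same on both strands. Promoters were matched for 51 of the 60 members, and 11 of these (21.6%) held the motif, against 12.4% of 8194 genes tested in RPFs and 17.6% of 91 factors of the second list. The 11 were Rrn3, Imp4, Utp4, Utp18, Utp20, Wdr43, Ltv1, Pno1, Tsr1, Nop2 and Pes1, with 12 copies in all, 10 of them within 100 bases of the start. Among the matched members the pre-40S step had the motif in 3 of 4 and the snoRNP steps in 0 of 6. The 11 members with it had an RPF median of -0.28 and 0 calls, and the 40 without it an RPF median of -0.28 and 4 calls. Over all genes 3.72% were called lower and 6.6% higher in RPFs, so few calls are expected among 11 members. Whether the sets differ was not tested. Only the 5 copies upstream of the start are shown, on the strand of the gene, each in a window of 30 bases with the E-box in capitals. The other copies, among them those of Ltv1, Pno1, Tsr1 and Wdr43, begin at positions 3 to 38 downstream and are not printed. The copies shown lie 215 and 48 bases before the start in Rrn3, 121 in Imp4, 60 in Nop2 and 20 in Utp18.
Rrn3, chr16:13780472-13780501, plus strand: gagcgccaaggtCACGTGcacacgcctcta
Rrn3, chr16:13780639-13780668, plus strand: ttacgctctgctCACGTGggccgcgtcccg
Imp4, chr1:34439696-34439725, plus strand: acggtcttagacCACGTGacatcccaaatc
Nop2, chr6:125131811-125131840, plus strand: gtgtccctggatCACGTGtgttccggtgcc
Utp18, chr11:93885769-93885798, minus strand: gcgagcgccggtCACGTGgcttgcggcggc
These are reference sequences, and no binding was measured at them. None of the 4 genes passed in RPFs, Nop2 being the lowest at -0.39 (adjusted p = 0.153) and Utp18 at -0.05 (adjusted p = 0.858).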

How the data were processed

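RPFs and total cytoplasmic RNA were sequenced from the same lysates. Per the labels and the study's methods, the authors trimmed reads with cutadapt 1.18, removed duplicates by molecular identifier with UMI-tools 1.0.1, and aligned to a filtered GENCODE vM27 protein-coding transcriptome, RPFs with BBmap and total RNA with Bowtie2 2.3.5.1 and RSEM 1.3.3. The submitters' processing notes also list SAMtools 1.9. The authors deposited RPF counts in the coding sequence of 1 transcript per gene, and RSEM expected counts and TPM per isoform for total RNA. Coding-sequence counts and expected counts were summed per gene ID, and expected counts were rounded. Genes were filtered with filterByExpr, scaled by TMM and tested with edgeR 4.0.16 in R 4.3.3 (quasi-likelihood, line plus replicate block, Benjamini-Hochberg adjustment over all genes, threshold 0.1). CPM are normalised counts computed from the deposited counts, and TPM were averaged as deposited. TE was the interaction of line and kind of library with the lysate as a block. Log2 fold changes are KM 4A2cr over KM NTC.

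Replicates carry a number shared by both lines, and per the series' design text replicates were plated and harvested on different days. Same-numbered libraries deviated together, with correlations of 0.575 to 0.782 in RPFs (10291 genes) and 0.611 to 0.756 in total RNA (10880 genes), so the replicate was kept as a block.

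The 60 members, the second list, the steps and the tests were chosen with earlier results of these data known. Values in every library are given for the member with the smallest RPF p and the smallest total RNA p of each step and for every member called in any comparison. The promoter motif and its split were chosen after the fold changes were seen. Standard errors were derived from the fold change and the F statistic of the fitted model. The recovery of changed genes, and not the standard errors, was tested on simulated data. Alternatives were DESeq2 1.42.0, upper-quartile or library-size scaling, other count filters, a threshold of 0.05, no block, the RPF isoform alone and each replicate left out. Promoters are RefSeq's in GRCm38.p6. Members had at least 23 RPF counts and 22 total RNA counts in every library. Part of the genotype of the mouse is not reported here.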

Additional observations from a re-analysis of the deposited data

Results flagged for a closer look

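Of 64 groups of 4 libraries tested for a value far from the rest, from the 15 factors described by library and the median over all members, 4 had one by Dixon's criterion, and chance alone flags about 1 in 20 groups. All 4 were total RNA libraries of replicate 4 below the others of their line. Gar1 stood at 10.2 CPM in KM NTC replicate 4, against 17.1 to 18.4 in the others, and at 8.07 CPM in KM 4A2cr replicate 4, against 14.2 to 15.4. Ltv1 stood at 23.8 CPM in KM NTC replicate 4, against 27.8 to 28.2. Ebna1bp2 stood at 29.0 CPM in KM 4A2cr replicate 4, against 65.7 to 72.3.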

How the results depend on the processing

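The number of members called varied with the processing, as did the number over all genes. In RPFs it was 5 as reported, 2 at a threshold of 0.05, 0 with no replicate block, 3 with DESeq2 and 24 with library size as the sole scaling, and from 0 to 28 with a replicate left out. Of all 10291 genes, 383 were lower as reported, 0 with no replicate block, 287 with DESeq2 and 1137 with library size. With a replicate left out, from 3 to 1487 genes were lower. In total RNA it was 0 as reported, 2 with upper-quartile scaling, 19 with library size, 3 with no filter on low counts and 1 on the RPF isoform alone, and from 0 to 17 with a replicate left out. There 194 of 10880 genes were lower as reported, 216 with upper-quartile scaling and 868 with library size. With no filter 474 of 17652 were lower, and on the RPF isoform alone 139 of 10403. With a replicate left out, from 13 to 1309 were lower. In TE it was 2 as reported, 1 at a threshold of 0.05, with DESeq2, with library size and on the RPF isoform alone, 0 with no replicate block, and from 0 to 6 with a replicate left out. All genes gave 187 higher and 100 lower in TE as reported, and 0 of either with no replicate block. They gave 102 and 34 with DESeq2, 105 and 28 with library size, and 168 and 88 on the RPF isoform alone. Without replicate 1, 2 or 3 they gave 10, 16 and 13 higher and 5, 3 and 3 lower. Without replicate 4 they gave 508 and 292. The member medians moved past the spread between pairs only under library size, to -0.41 in RPFs and -0.34 in total RNA. Among the factors described by library 1 value changed sign, that of Lyar in RPFs, -0.08 as reported and from -0.16 to 0.01 with a replicate left out, the last without replicate 4. Replicate 4 had the lowest level of these factors in both lines, and why the counts rise without it was not tested. The median standard error of a member was 0.14 in RPFs.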
